A study of Mus musculus with 4 samples.

Results

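The Slc25 family is a set of carrier proteins, most of which move metabolites across the inner membrane of mitochondria. Its members were taken as all array probes other than controls whose gene name begins with Slc25a and a number, which gave 73 probes for 42 of the 28149 gene names on the array. For a gene with several probes the one with the highest mean signal over the 4 arrays was used, and 37 of the 42 genes were bright enough to be tested. The samples were granulocytes of miR-223 knockout (KO) mice, 2 arrays, and of wild-type (WT) mice, 2 arrays. All mice were male C57BL/6, and in both genotypes bone marrow was grown for 4 days with GM-CSF at 40 ng/ml, a growth factor of granulocytes and macrophages, before the expanding immature granulocytes were sorted. The labels give neither the sort gate nor how the miR-223 gene was deleted. Whether the replicates are separate animals is not given either, so p-values measure only the spread between these samples, which may be technical.

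Slc25 genes lie in the nucleus, and their proteins are made in the cytosol. Most are then threaded into the mitochondrial inner membrane by the import machinery. Each carrier binds its substrate from one side and releases it to the other, so that the family sets the traffic of ADP and ATP, phosphate, carboxylates, amino acids, coenzymes and iron between mitochondria and cytosol. Neutrophils rely largely on glycolysis when mature, while their dividing precursors use mitochondria for energy, heme and building blocks.

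The microRNA that the knockout mice lack binds messenger RNA through its seed, bases 2 to 8, shown here in capitals because a transcript that it targets directly would be recognised by that stretch (RefSeq, GRCm38.p6, chrX:96242884-96242905, plus strand).
mmu-miR-223-3p: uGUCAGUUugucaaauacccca
The DNA letters that pair with this seed, AACTGAC read on the sense strand of the probe, were found in 0 of the 73 Slc25 probes and in 153 of all 41174 probes (0.372%). The probes are 60 bases long and cover little of each transcript, so this count says only that these letters are not in these windows. The deletion of the microRNA itself was not checked here.

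Levels are given as log2 of the processed signal minus the 75th percentile of the array, so that 0 is that percentile and a difference of 1 is 2-fold. Probes bind with unequal strength, and a level of a probe is therefore compared only with the same probe on the other arrays. This percentile was an intensity of 514 and 493 for the KO arrays and 586 and 486 for the WT arrays, and 57.6% to 63.5% of probes were well above background. Of 20 granulocyte markers 18 were on the array under their listed names, and all 18 were tested (median KO minus WT log2 difference 0.20; summed scaled signal 4840 and 5380 on the KO arrays, against 4370 and 4630 on the WT arrays). Among the 13 erythroid markers, those never well above background included Ahsp, Alas2, Klf1 and Rhag, and the 6 tested ones had a median difference of 0.11 and a sum of 6.44 and 5.35 in KO, against 7.17 and 5.04 in WT. No marker passed the test (limma), and the summed levels of 2 lists of other cells did not overlap between genotypes. All 22 macrophage and monocyte markers were tested, with a median KO minus WT log2 difference of -0.99 and a summed scaled signal of 215 and 241 on the KO arrays, against 189 and 209 on the WT arrays; each was well above background on some array. The median marker was thus lower in KO while the sum was higher. Both KO arrays lay below both WT arrays for 14 of the 22 and above for 4, beside 20.1% and 28% of all tested genes. A sum weighs the brightest marker most, here Ly6c1, at 7.08 and 7.25 on the KO arrays, against 6.69 and 6.70 on the WT arrays. Mast cell and basophil markers had a median difference of -1.41 over 10 tested of 13, and a sum of 46.4 and 24.5 on the KO arrays, against 65.1 and 72.9 on the WT arrays, with Cma1, Mcpt4 and Tpsb2 never well above background. The 16 dendritic cell and MHC class II markers had a median difference of -0.23 and a sum of 351 and 237 in KO, against 297 and 371 in WT. The lymphoid markers, 7 tested of 12, had a median of 0.03 and a sum of 26.6 and 20.7 in KO, against 23 and 21.9 in WT, with Cd3g, Klrb1c and Pax5 never well above background. The part of such cells in the Slc25 values was not tested, and in bulk samples fewer cells of a type cannot be told apart from less RNA per cell.

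Slc25 genes as a family showed no shift of their median between the genotypes. None of the 37 tested members passed an adjusted p of 0.05 (limma), and neither did any of all 16578 tested genes (percent called 0). At an unadjusted p under 0.05 there were 3 members, which is 8.11% of the members beside 13.6% of all tested genes. Of these, 1 was higher in KO (beside 8.04% of all genes) and 2 were lower (beside 5.55%). The median difference was 0.00 over the members and 0.03 over all tested genes, with 19 members above 0 and 18 below (51.4% positive, beside 54.8% of all genes). The 19 include Slc25a42, Slc25a23 and Slc25a27, which were bright enough to be tested through the KO arrays alone. The fitted difference reached 2-fold in 1 member (2.7%, beside 3.6% of all tested genes). This was Slc25a42, which was not well above background on either WT array, and no member measured in both genotypes reached that size. The 2 KO arrays lay above both WT arrays for 8 members and below both for 9, together 45.9% beside 48.1% of all tested genes (28% above and 20.1% below). Among the 8 are Slc25a42 and Slc25a23, tested through the KO arrays alone as said above. The shares of all genes hold such genes too. With scaling by spike-in controls that split was 3 above and 12 below, or 8.11% and 32.4% of the members, beside 22.5% and 19.2% of all tested genes. The share in either direction together was then 40.5% beside 41.7%, so the total, and not the split, lay near all genes under these 2 scalings. Scaling by the median gave 21.6% above and 29.7% below, beside 29.1% and 18.2% of all genes. Quantile normalization gave 18.9% and 29.7%, beside 26.4% and 21.8%. Genes well above background on all 4 arrays gave 17.6% and 26.5%, beside 26.7% and 21.1%. Normexp and the deposited values kept this order. The mean of all probes turned it (24.3% above and 16.2% below, beside 26.4% and 19.8%), as did leaving out WT or KO replicate 2.

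**Figure D1:**
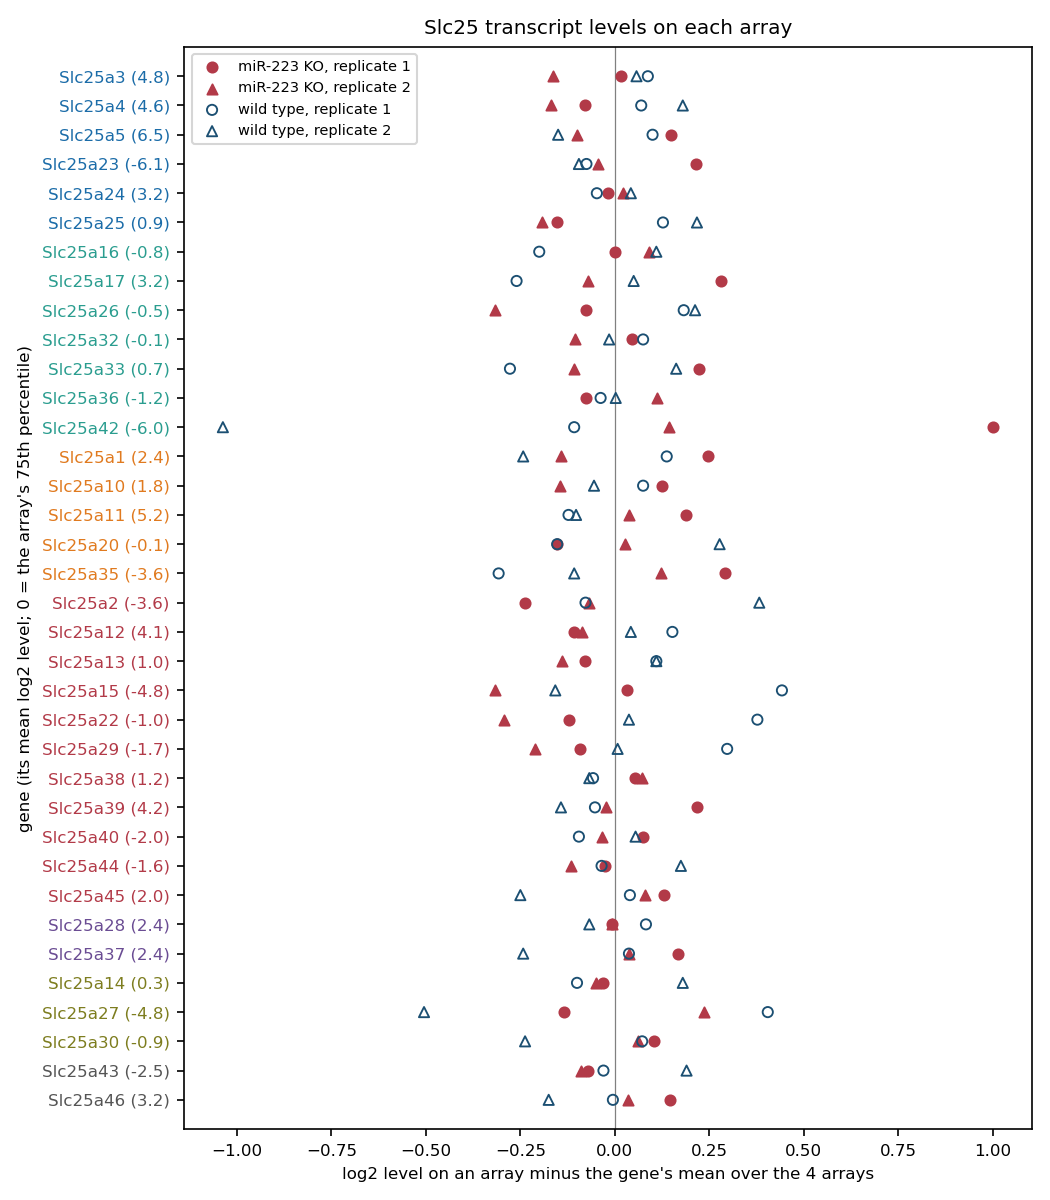
Level of 36 tested Slc25 genes on each array, as its log2 difference from the gene's own mean over the 4 arrays, with miR-223 KO arrays as filled and wild-type arrays as open symbols, and circles and triangles for replicates 1 and 2. Gene names are coloured by the role groups used in the text, the mean log2 level stands in brackets, and for 19 of the 36 genes the filled and open symbols overlap in range.

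The typical difference was of about the size of its error. The median size of a member's difference was 0.17 on the log2 scale and the median standard error (SE) was 0.149. The 95% interval of the difference lay inside 2-fold in either direction for 35 of 37 members, beside 78.9% of all tested genes. The exceptions were Slc25a42 and Slc25a27, whose probes were close to background. Among genes measured in both genotypes, the differences ran from -0.42 (Slc25a22) to 0.41 (Slc25a35). In 9 members the difference was 0.25 or more in size, which is 24.3% of members beside 38.5% of all tested genes. Intervals are from limma and are not adjusted for the number of genes.

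**Figure D2:**
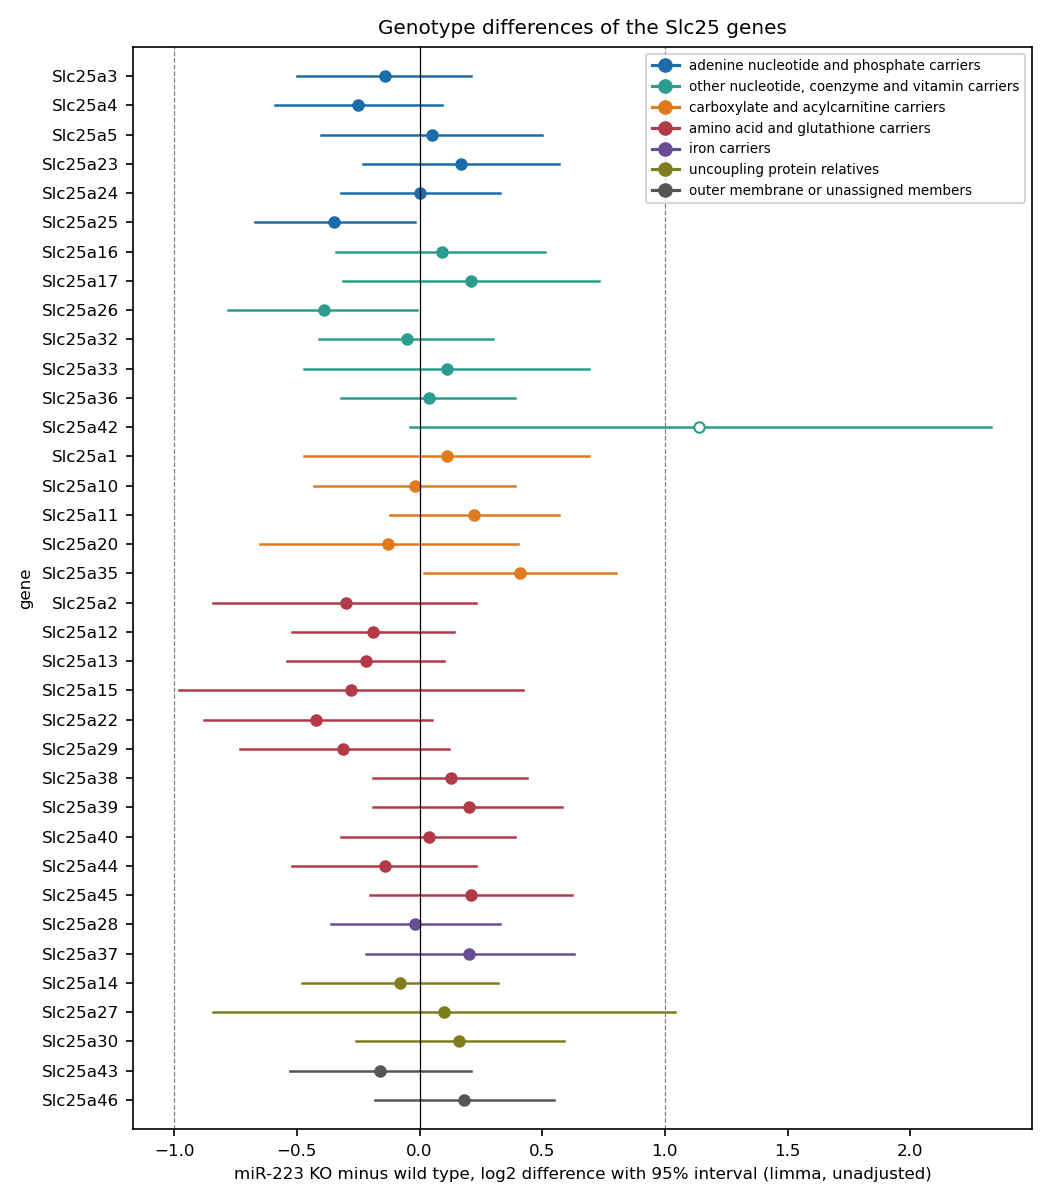
KO minus WT log2 difference of 36 tested Slc25 genes (points) with its 95% interval from limma (lines, unadjusted), coloured by role, with dashed lines at 2-fold. The open point is Slc25a42, which was not well above background on either wild-type array, and 3 of the 36 intervals lie wholly on one side of 0.

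The adenine nucleotide and phosphate carriers supply the ATP synthase and export its product. Of 8 on the array 6 were tested and 0 passed (limma). Both KO arrays lay below both WT arrays for Slc25a3, Slc25a4 and Slc25a25 and above for Slc25a23. Together this is 66.7% of the 6, beside 48.1% of all tested genes (20.1% below and 28% above). Slc25a4, the ADP/ATP translocase ANT1 (chr8:47292828-47292887, mm9), was at 4.51 and 4.42 on the KO arrays, against 4.66 and 4.77 on the WT arrays. The groups did not overlap, and the difference was -0.25 ± 0.13 (SE, n = 2 per group; limma adjusted p = 0.458). Slc25a5, the translocase ANT2 (chrX:34338475-34338534), was at 6.69 and 6.44 on the KO arrays, against 6.64 and 6.39 on the WT arrays. Here replicate 1 was the higher array in each genotype and the groups overlapped, at 0.05 ± 0.17, a sign that turned with quantile normalization. Slc25a3, which imports the phosphate used to make ATP, was at 4.81 and 4.63 on the KO arrays, against 4.88 and 4.85 on the WT arrays, with a difference of -0.14 ± 0.13. Its other probes gave -0.32 and -0.47. It came to -0.05 without KO replicate 2 and -0.23 without KO replicate 1.

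Slc25a25, a calcium-regulated ATP-magnesium/phosphate carrier, had the smallest adjusted p (limma) among the tested members that the array names Slc25a. Its levels were 0.79 and 0.75 on the KO arrays, against 1.07 and 1.16 on the WT arrays (probe at chr2:32270611-32270670, mm9). Both KO arrays were lower, at -0.35 ± 0.12 (1.27-fold; n = 2 per group; limma adjusted p = 0.35), and 2 further probes gave -0.31 and -0.37. Its relative Slc25a24 was at 3.14 and 3.18 on the KO arrays, against 3.11 and 3.20 on the WT arrays. The difference was 0.00 with a 95% interval from -0.32 to 0.33, while the other probe of Slc25a24 gave 0.21. Slc25a23, the third carrier of this kind, was dim, at -5.85 and -6.11 on the KO arrays, against -6.14 and -6.16 on the WT arrays, and was not well above background on WT replicate 2. Its difference of 0.17 ± 0.15 turned to -0.03 with normexp background correction and came to 0.03 without KO replicate 1.

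Carriers of other nucleotides, coenzymes and vitamins were all 8 tested, and 0 passed (limma). Slc25a26, which imports the methyl donor S-adenosylmethionine (chr6:94554505-94554564, mm9), was at -0.62 and -0.86 on the KO arrays, against -0.36 and -0.33 on the WT arrays. The KO arrays were the lower ones, at -0.39 ± 0.14 (1.31-fold; n = 2 per group; limma adjusted p = 0.363), and a further probe gave -0.42. With normexp the difference was -0.25. Slc25a42, a coenzyme A carrier, was at -5.00 and -5.86 on the KO arrays, against -6.11 and -7.04 on the WT arrays. It was well above background on both KO arrays and on neither WT array, so it was tested through its KO signal alone. The lowest signal well above background on WT replicate 2 was -5.39, and it can stand in for the dimmer probe there. The KO mean was then 1.25-fold higher, but that stand-in lay above KO replicate 2, so no least fold difference follows. Measured means of Slc25a42 were -5.43 in KO and -6.57 in WT (limma adjusted p = 0.377), and its other probe stayed near background throughout. The fitted difference of 1.14 came to 0.01 with normexp background correction, 0.12 with the mean of both probes, 0.68 without WT replicate 2 and 0.71 without KO replicate 1.

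Slc25a17, a carrier of peroxisomes, was at 3.48 and 3.13 on the KO arrays, against 2.94 and 3.25 on the WT arrays, a difference of 0.21 ± 0.19, with 0.21 and 0.24 from 2 further probes. It came to 0.04 without KO replicate 1, 0.06 without WT replicate 1, 0.36 without WT replicate 2 and 0.38 without KO replicate 2. On the probe used the groups overlapped, since KO replicate 2 lay between the WT arrays. On each further probe both KO arrays lay above both WT arrays. The pyrimidine nucleotide carriers Slc25a33 and Slc25a36 had differences of 0.11 ± 0.22 and 0.04 ± 0.13, the folate and FAD carrier Slc25a32 one of -0.05 ± 0.13, and Slc25a16, which is linked to the supply of coenzyme A, one of 0.09 ± 0.16. On the probes used, the groups of these 4 genes overlapped too, and each gene took the other sign when some replicate was left out. The other probe of Slc25a33 gave 0.00. That of Slc25a36 gave 0.53, with both KO arrays above both WT arrays.

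Among the carboxylate and acylcarnitine carriers, 5 of 7 were tested, 0 passed (limma), and 2 had both KO arrays above both WT arrays. These 2 are 40% of the 5, beside 28% of all tested genes that lay above. Slc25a11, the oxoglutarate-malate carrier of the malate-aspartate shuttle (chr11:70457739-70457798, mm9), was at 5.38 and 5.23 on the KO arrays, against 5.07 and 5.09 on the WT arrays. Both KO arrays were higher, at 0.22 ± 0.13 (1.17-fold; n = 2 per group; limma adjusted p = 0.503). Slc25a35, counted in this group though its substrate is not settled (chr11:68785799-68785858), was at -3.28 and -3.45 on the KO arrays, against -3.88 and -3.68 on the WT arrays. It was higher on both KO arrays, at 0.41 ± 0.15 (1.33-fold; limma adjusted p = 0.351), and at 0.18 with normexp background correction.

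Carriers that feed fatty acid synthesis and oxidation had overlapping groups. Slc25a1, which exports citrate for fatty acid synthesis, was at 2.64 and 2.25 on the KO arrays, against 2.53 and 2.15 on the WT arrays, so that the gap between replicates was larger than that between genotypes (0.11 ± 0.22). Slc25a20, which exchanges carnitine and acylcarnitine for fatty acid oxidation, was at -0.29 and -0.11 on the KO arrays, against -0.29 and 0.14 on the WT arrays (-0.13 ± 0.19). The dicarboxylate carrier Slc25a10 was at 1.91 and 1.64 on the KO arrays, against 1.86 and 1.73 on the WT arrays (-0.02 ± 0.15). For these 3 genes the sign turned when some replicate was left out.

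Amino acid and glutathione carriers were the largest group, with 12 on the array and 11 tested. Of these, 0 passed (limma), and the median difference was -0.19 beside 0.03 for all tested genes. In 4 both KO arrays lay below both WT arrays and in 3 above, together 63.6% beside 48.1% of all tested genes (20.1% below and 28% above). Both aspartate-glutamate carriers of the malate-aspartate shuttle were among the lower ones. Slc25a12 (aralar; chr2:71112979-71113038, mm9) was at 4.03 and 4.05 on the KO arrays, against 4.29 and 4.18 on the WT arrays, and Slc25a13 (citrin; chr6:5991482-5991541) was at 0.89 and 0.83 on the KO arrays, against 1.08 and 1.08 on the WT arrays. The differences were -0.19 ± 0.12 for Slc25a12 and -0.22 ± 0.12 for Slc25a13 (n = 2 per group; limma adjusted p = 0.546 and 0.484), and that of Slc25a12 turned to 0.06 with the mean of all its probes. The third carrier of the shuttle, Slc25a11, had the opposite sign, as given above.

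Slc25a22, a glutamate carrier (chr7:148616089-148616148, mm9), was at -1.1 and -1.27 on the KO arrays, against -0.60 and -0.94 on the WT arrays. Both KO arrays were lower, at -0.42 ± 0.18 (1.33-fold; n = 2 per group; limma adjusted p = 0.402), the lowest value of the family, and -0.24 without WT replicate 1. Slc25a29, a carrier of basic amino acids, was at -1.78 and -1.90 on the KO arrays, against -1.39 and -1.68 on the WT arrays (-0.31 ± 0.16), while its other probe gave 0.25. It came to -0.16 without WT replicate 1. The ornithine carriers Slc25a2 and Slc25a15 had differences of -0.30 ± 0.20 and -0.28 ± 0.26 with overlapping groups, and the branched-chain amino acid carrier Slc25a44 one of -0.14 ± 0.14. Leaving out WT replicate 1 brought Slc25a15 to 0.02 and Slc25a2 to -0.53, and leaving out WT replicate 2 brought them to -0.58 and -0.08. Slc25a44 came to -0.04 without WT replicate 2 and -0.24 without WT replicate 1.

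The 3 genes of this group with both KO arrays above both WT arrays were Slc25a38, Slc25a39 and Slc25a45. Slc25a38, which carries glycine for heme synthesis, was at 1.29 and 1.31 on the KO arrays, against 1.18 and 1.17 on the WT arrays (0.13 ± 0.12). Slc25a39, which imports glutathione (chr11:102264539-102264598, mm9), was at 4.41 and 4.17 on the KO arrays, against 4.14 and 4.05 on the WT arrays (0.20 ± 0.14; 0.08 without KO replicate 1). On the probes used, each KO array lay above each WT array for both genes. The other probe of Slc25a39 gave 0.06, with overlapping groups. Slc25a45 was at 2.13 and 2.08 on the KO arrays, against 2.04 and 1.75 on the WT arrays (0.21 ± 0.15; 0.07 without WT replicate 2 and 0.35 without WT replicate 1). Slc25a40, the close relative of Slc25a39, was at -1.93 and -2.04 on the KO arrays, against -2.10 and -1.95 on the WT arrays, a difference of 0.04 ± 0.13 whose sign turned when some replicate was left out and which was 0.50 with the mean of all its probes, of which only the one used was well above background on every array.

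The iron carriers, or mitoferrins, bring iron to the enzymes that make heme and iron-sulfur clusters, and neither separated the genotypes. Slc25a37 (mitoferrin 1, abundant in erythroid cells) was at 2.57 and 2.44 on the KO arrays, against 2.44 and 2.16 on the WT arrays (0.20 ± 0.16; 0.06 without WT replicate 2 and 0.34 without WT replicate 1), while a further probe gave -0.13. Slc25a28 (mitoferrin 2) was at 2.44 and 2.44 on the KO arrays, against 2.53 and 2.38 on the WT arrays, a difference of -0.02 with a 95% interval from -0.36 to 0.33. The uncoupling protein relatives Slc25a14, Slc25a27 and Slc25a30 had overlapping groups too. Their differences were -0.08 ± 0.15, 0.10 ± 0.35 and 0.16 ± 0.16, and that of Slc25a30 came to 0.01 without WT replicate 2. Other probes gave 0.06 for Slc25a14 and -0.11 and -0.01 for Slc25a30. Those of Slc25a27, not well above background on every array, gave -0.03 and 1.13. Slc25a27 was dim, at -4.96 and -4.59 on the KO arrays, against -4.42 and -5.33 on the WT arrays, and not well above background on WT replicate 2.

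Of the 2 remaining members, Slc25a46, which sits in the outer membrane and takes part in mitochondrial fusion and fission, was at 3.37 and 3.26 on the KO arrays, against 3.22 and 3.05 on the WT arrays. Both KO arrays were higher (0.18 ± 0.14; 0.10 without WT replicate 2), and 2 further probes gave 0.27 and 0.45. Slc25a43, whose substrate is unsettled, was at -2.53 and -2.55 on the KO arrays, against -2.49 and -2.27 on the WT arrays (-0.16 ± 0.14; -0.05 without WT replicate 2; its other probe 0.06). With Slc25a5 and Slc25a14 it makes 3 tested members on the X chromosome, which also holds the miR-223 gene, and their differences ran from -0.16 to 0.05.

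Of the 5 members that were not tested, Slc25a18, Slc25a21, Slc25a31 and Slc25a34 stayed below that mark on every array. Slc25a18 is a glutamate carrier, Slc25a21 carries oxodicarboxylates and Slc25a31 is the ADP/ATP translocase of the germ line. Slc25a41, a relative of the ATP-magnesium/phosphate carriers, was well above background on KO replicate 2 and WT replicate 1. Its levels were -6.06 and -5.38 on the KO arrays, against -6.04 and -6.41 on the WT arrays.

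Separate probes of a gene gave a second reading of the same samples. In 16 members 2 or 3 probes were well above background on all 4 arrays. All probes of a gene had 1 sign in 10 of them and lay on both sides of 0 in 6. The 10 include Slc25a24 and Slc25a33, in each of which 1 probe was at 0.00 after rounding, so its sign means little. The probes of Slc25a17, Slc25a26 and Slc25a25 differed by 0.03 to 0.06 on the log2 scale. Those of Slc25a29, Slc25a36 and Slc25a12 were the furthest apart, by 0.56, 0.49 and 0.38. Such gaps exceed the genotype difference of most members. Probes of a gene share the same RNA and are not replicates.

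**Figure D3:**
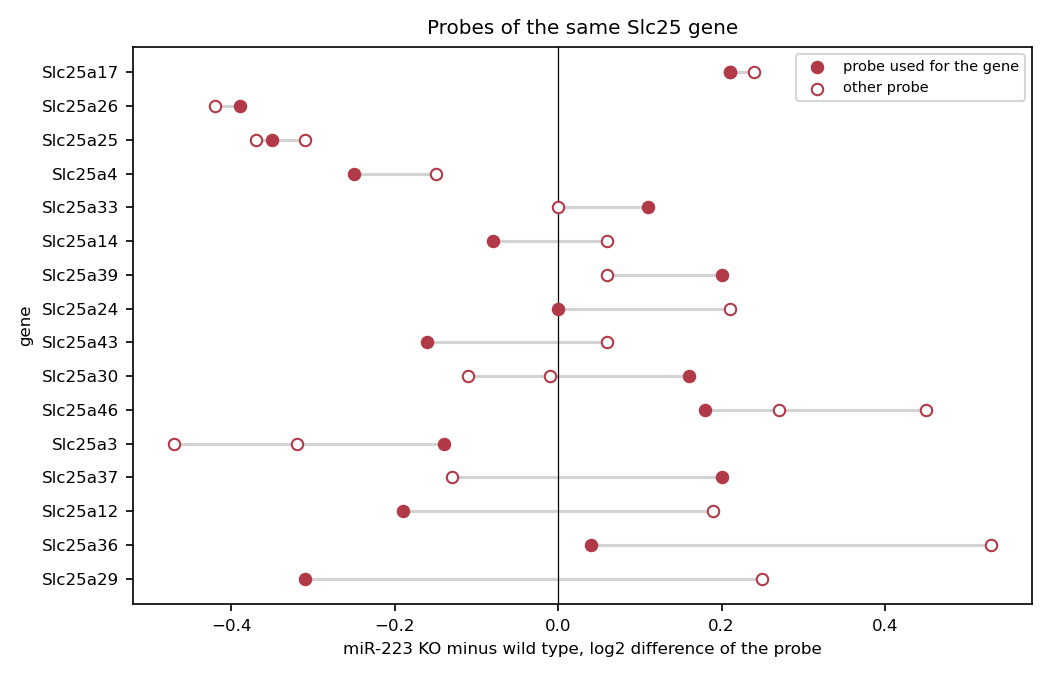
KO minus WT log2 difference of each probe that was well above background on all 4 arrays, for the 16 Slc25 genes with more than 1 such probe, ordered by the gap between probes. Filled points are the probes used for the genes; the gap runs from 0.03 for Slc25a17 and Slc25a26 to 0.56 for Slc25a29.

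Of 26 genes of mitochondrial transport outside the Slc25 names, such as the uncoupling proteins and the pyruvate carrier, 22 were tested and 0 passed (limma). At an unadjusted limma p under 0.05 there was 1 (4.55%, beside 13.6% of all tested genes), and the median difference was 0.06. Groups were apart in 7 genes as higher and 2 as lower in KO, together 40.9% beside 48.1% of all tested genes (28% higher and 20.1% lower). Ucp2, an uncoupling protein of leukocytes and a member of the same protein family by sequence, was at 3.66 and 3.56 on the KO arrays, against 3.21 and 3.25 on the WT arrays. It was higher on both KO arrays, at 0.38 ± 0.12 (n = 2 per group; limma adjusted p = 0.33), and 2 further probes gave 0.22 and -0.31. Mpc2, a subunit of the pyruvate carrier, was at 4.95 and 4.84 on the KO arrays, against 4.60 and 4.57 on the WT arrays (0.31 ± 0.12). The sodium-calcium exchanger gene Slc8b1 had a difference of 0.27 ± 0.16, or 0.12 without WT replicate 1.

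The import machinery places carriers in the inner membrane, with the small Tim proteins as their chaperones. All 25 listed genes were tested and 0 passed (limma). At an unadjusted limma p under 0.05 there were also 0, beside 13.6% of all tested genes, and the median difference was -0.11. Groups were apart in 2 genes as higher and 7 as lower in KO, together 36% beside 48.1% of all tested genes (28% higher and 20.1% lower). Timm9, a small Tim chaperone, was at 0.92 and 0.64 on the KO arrays, against 1.19 and 1.1 on the WT arrays (-0.36 ± 0.15; -0.22 without KO replicate 2). Tomm7, a subunit of the outer membrane pore, was at 5.90 and 5.78 on the KO arrays, against 5.52 and 5.63 on the WT arrays (0.27 ± 0.13), and Timm21 was at -0.28 ± 0.14 (-0.16 without WT replicate 1). These were the 3 genes of the list with the smallest p.

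Enzymes that use what the carriers deliver had a median difference of 0.00 over 35 tested of 35, with 0 passing (limma). At an unadjusted limma p under 0.05 there was 1 (2.86%, beside 13.6% of all tested genes). Groups were apart in 8 genes as higher and 6 as lower in KO, together 40% beside 48.1% of all tested genes (28% higher and 20.1% lower). Arg2, the mitochondrial arginase that yields ornithine, was at -0.20 and 0.27 on the KO arrays, against -1.35 and -0.58 on the WT arrays. It was higher on both KO arrays, at 1 ± 0.33 (n = 2 per group; limma adjusted p = 0.332), and at 0.61 without WT replicate 1. Pck2, the mitochondrial phosphoenolpyruvate carboxykinase, was at 2.97 and 2.55 on the KO arrays, against 2.37 and 1.91 on the WT arrays (0.62 ± 0.24; 0.39 without WT replicate 2 and 0.41 without KO replicate 1), and the carnitine acetyltransferase gene Crat had a difference of 0.29 ± 0.14. The lists of neighbours were not tested against the Slc25 genes.

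**Figure D4:**
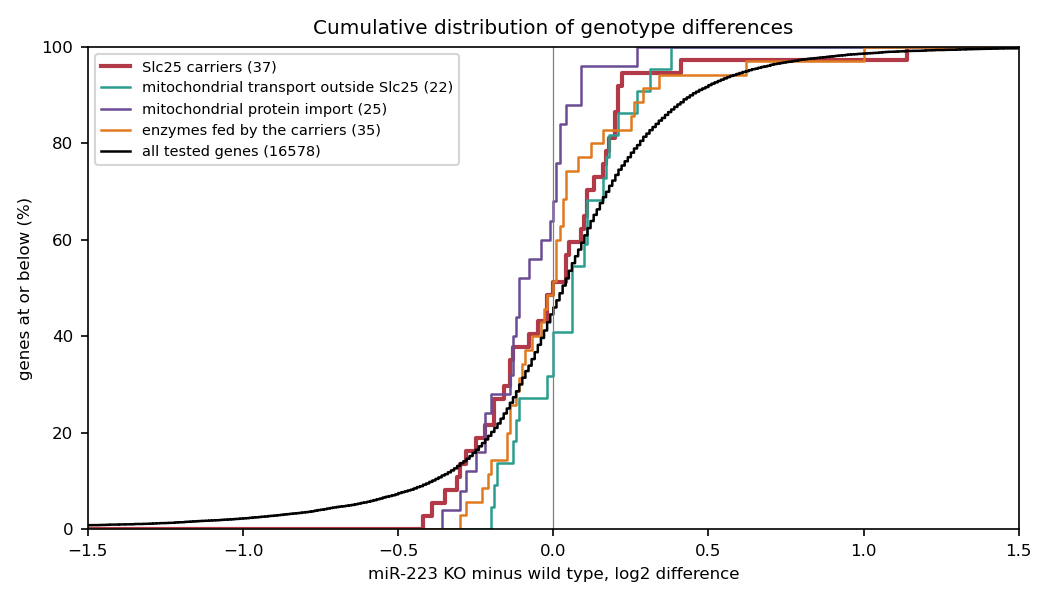
Share of genes (y axis, %) at or below each KO minus WT log2 difference (x axis, drawn from -1.5 to 1.5) for the 37 tested Slc25 genes, 3 lists of mitochondrial neighbours and all 16578 tested genes. The Slc25 line crosses 50% at a difference of 0.00 and the line of all genes at 0.03.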

How the data were processed

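Cy3-labelled RNA of 2 KO and 2 WT samples was read on 4 Agilent mouse arrays of 1 slide. Intensity values per spot were made with Agilent Feature Extraction 10.5.1.1, per the file headers (local background and spatial trends removed, dim spots given surrogate values, build mm9). Other values, such as flags for spots well above background, are from the same files, as deposited. The authors' deposited log2 values equal log2 processed intensity plus 1 constant per array for at least 99.83% of probes (within 0.01), and served as an alternative.

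Control and outlier spots were left out, repeat spots were averaged on the log2 scale, and the array's 75th percentile was then subtracted. Genes followed the array's gene names. Those well above background on both KO or both WT arrays, with no outlier spot, were tested with limma 3.58.1 in R 4.3.3 (Benjamini-Hochberg over 16578 genes, threshold 0.05, two-sided), checked on simulated data. An exact permutation test of 2 against 2 arrays cannot go below p = 0.333 and was not run. Current symbols, used for neighbouring lists, came from RefSeq (GRCm38.p6) for 27001 probes, with 14173 unmatched. The members and lists were chosen with earlier results of these data known. Members were named by role; per-array values were required for up to 8 members per direction whose groups do not overlap, the 5 with the highest signal and those partly above background, and other lists show the 3 genes with the smallest p. Alternatives covered scaling, background correction, filters, probe choice, naming, trend, replicate block and leaving out each array. Values of 1 member are included in the counts and not reported singly.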

Additional observations from a re-analysis of the deposited data

How the results depend on the processing

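None of the members tested (34 to 42, by the filter) passed an adjusted p of 0.05 (limma) under any of the 15 alternatives, and the lowest adjusted p of a member was 0.214. The median difference of the members stayed between -0.05 and 0.02. Members whose groups do not overlap numbered 15 to 20 with all 4 arrays, 40.5% to 54.1% beside 35.6% to 48.2% of all tested genes. With 3 arrays, where a lone array must overlap less, they numbered 23 to 30, 62.2% to 81.1% beside 68.3% to 79.1%. Over all genes, 1 passed with scaling by the median, 3 with spike-in scaling, 5 with normexp background correction and 1 with the authors' deposited log2 values, none of them a member. With the replicate number as a block, 17 members had groups that do not overlap, 0 passed, and the lowest adjusted p was 0.238 (limma). Same-numbered samples deviated together weakly (correlation across genes 0.175), which does not show that numbers pair the samples. Of 687 values of 46 named genes under alternatives, 31 had the other sign, in 17 members. These were 0.06 for Slc25a12 and -0.11 for Slc25a37 with the mean of all probes, -0.03 for Slc25a23, -0.04 for Slc25a27 and 0.08 for Slc25a28 with normexp, -0.03 for Slc25a24 and -0.07 for Slc25a5 with quantile normalization, and -0.02 for Slc25a24 with spike-in scaling. Slc25a28 was at 0.00 with scaling by the median and 0.01 with the authors' values. When each array was left out in turn, differences ran from -0.09 to 0.30 for Slc25a1, -0.15 to 0.11 for Slc25a10, -0.22 to 0.06 for Slc25a14, -0.58 to 0.02 for Slc25a15, -0.07 to 0.24 for Slc25a16, -0.34 to 0.09 for Slc25a20, -0.04 to 0.05 for Slc25a24, -0.35 to 0.56 for Slc25a27, -0.09 to 0.06 for Slc25a28, -0.13 to 0.02 for Slc25a32, -0.11 to 0.33 for Slc25a33, -0.06 to 0.13 for Slc25a36, -0.04 to 0.11 for Slc25a40 and -0.08 to 0.18 for Slc25a5. The causes were not tested. In those fits the lone array of a group is assumed to vary like the others. Slc25a42 ran from 0.01 with normexp to 1.61 without WT replicate 1.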

Other observations

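Within the KO genotype, replicate 1 gave the higher level for 28 of the 37 tested Slc25 genes (75.7%), beside 57% of all tested genes, while WT replicate 1 was the higher one for 20 of 37 (54.1%, beside 50.9%). The median gap between the 2 arrays of a genotype was 0.15 in KO and 0.21 in WT over the members, the same as over all tested genes.

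Family members that the array lists under older names lie outside the naming rule. Through RefSeq accessions, the probe listed as AI132487 reads Slc25a47, a carrier known from liver, at -1.79 and -1.95 on the KO arrays, against -2.25 and -2.53 on the WT arrays. Its difference was 0.52 ± 0.16 (SE, n = 2 per group; adjusted p = 0.322 in the limma fit with genes named through RefSeq). The probe listed as Mcart1 reads Slc25a51, the mitochondrial NAD carrier, at 1.37 and 1.34 on the KO arrays, against 1.29 and 1.26 on the WT arrays (0.08 ± 0.12). Slc25a48 and Slc25a54 were not well above background on any array, and neither were Ucp1 and Ucp3. Mtch1 and Mtch2, carrier-like proteins of the outer membrane, had differences of -0.18 ± 0.12 and 0.00 ± 0.17.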
